A study of Mus musculus with 9 samples.

Results

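The Hox genes are the 39 protein-coding genes of the 4 mouse Hox clusters, taken here as every protein-coding gene whose GENCODE M21 symbol is Hox, a cluster letter and a number. They are 39 of the 49315 gene identifiers in the count table, and all 39 are in it. The HoxA cluster holds 11 of them (chr6:52155590-52260880), HoxB 10 (chr11:96194316-96368256), HoxC 9 (chr15:102921103-103036852) and HoxD 9 (chr2:74668310-74765142), in GRCm38 coordinates. Poly-A RNA was sequenced from 9 samples of pancreatic stellate cells, the fibroblast-like cells of the pancreas, from C57BL6 mice. The cells had become immortal by spontaneous outgrowth, and the same lentiviral Cas9 with 1 guide RNA was put into all of them, followed by puromycin selection. HIF1a-ko hypoxia (3 libraries) carried guide sg2 against HIF1a, which encodes the HIF-1 subunit that oxygen keeps low, at 0.5% oxygen for 48 h. R26 hypoxia (3 libraries) carried the control guide sg1 against R26, the Rosa26 locus used as a neutral target, at 0.5% oxygen for 48 h. R26 normoxia (3 libraries) carried the same control guide at 20% oxygen for 48 h. The cells were used as uncloned pools, so a HIF1a-ko library can hold RNA of unedited cells. The 9 samples hold no HIF1a-ko group at 20% oxygen, so an interaction of guide and oxygen could not be fitted. The labels name no separate cultures behind the libraries of a group, so the p-values reflect only how these libraries vary among themselves, and that variation may be technical.

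HOX proteins are homeodomain transcription factors that give cells along the head-to-tail axis their regional identity. Genes with the same number in different clusters are paralogs, low numbers are expressed from the hindbrain and neck backwards and high numbers only towards the tail, in the order in which the genes lie on the chromosome. HOX proteins bind DNA with TALE partners of the PBX, MEIS and PKNOX families, and Polycomb and trithorax complexes keep each cluster silent or active after the embryo has been patterned. Adult fibroblasts keep in culture a set of active Hox genes that depends on the body site they came from.

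Total counts ran from 43837809 to 107840223 per library, and 1 library in each group had over 1.5 times the median total. These are HIF1a-ko hypoxia 1, R26 hypoxia 3 and R26 normoxia 3, called deeper below, and the other 6 are called shallower. The deeper and shallower libraries stood apart: edgeR called 5286 of 18211 genes between them (29%). Of 10 markers of intestinal epithelium, 9 were lower in the deeper libraries, with summed levels of 12.6 to 14.7 CPM (counts scaled to the size of the library) in deeper and 46.9 to 82.1 CPM in shallower libraries. All 5 fat cell, 7 of 8 leukocyte, 4 of 6 epithelial and 3 of 6 endothelial markers were lower in the deeper libraries too. The fat cell markers summed to 0.246 to 0.521 CPM in deeper and 56.8 to 116 CPM in shallower libraries. The leukocyte markers summed to 9.22 to 18.1 CPM in deeper and 55.3 to 85.4 CPM in shallower libraries. Results of the Hox genes are therefore also given within each depth, while those of the other gene lists below are not. All 14 stellate and fibroblast markers were detected, with summed levels of 13864 to 14276 CPM in HIF1a-ko hypoxia, 20178 to 21618 CPM in R26 hypoxia and 17936 to 19545 CPM in R26 normoxia. Most of each sum was Col1a1, Col1a2 and Vim. Des was at 0.246 to 3.73 CPM and Fap at 0.379 to 0.848 CPM across the libraries. Of the 14 markers 2, Des and Lum, were lower in the deeper libraries. Of 9 acinar and islet markers, 3 (Amy2a1, Ins1 and Ins2) had 0 counts in every library. The list summed to 4.49 to 7.06 CPM in HIF1a-ko hypoxia, 10.7 to 12.9 CPM in R26 hypoxia and 10.7 to 14.9 CPM in R26 normoxia, most of it Cela1, which had 4.22 to 12.7 CPM across the libraries. HIF1a mRNA (Hif1a) was at 123, 117 and 125 CPM in HIF1a-ko hypoxia, against 178, 169 and 207 CPM in R26 hypoxia and 194, 192 and 225 CPM in R26 normoxia. The HIF1a-ko libraries lay below every R26 library for Hif1a. Its log2 fold change between the hypoxic groups was -0.60 ± 0.09 (± SE, edgeR quasi-likelihood test, adjusted p = 0.000319). An mRNA level does not measure how many alleles were edited.

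Sequences of the regions that the values below refer to are shown here, since a HOX cluster is controlled both at its promoters and by microRNAs encoded inside it. RefSeq promoter windows on GRCm38.p6, from 250 bases before to 50 after a gene's start, were found for 22 of the 39 genes, with 24 windows in all because Hoxa10 and Hoxd11 have 2 starts. The 3 shown belong to HoxA and HoxB members that later paragraphs turn on, and that of Hoxa3 lies at the upstream start which RefSeq gives it, between Hoxa6 and Hoxa7. Capitals mark ACGTG or GCGTG on either strand, the core of the element that HIF dimers bind.
Hoxa3 promoter, chr6:52213018-52213317, minus strand: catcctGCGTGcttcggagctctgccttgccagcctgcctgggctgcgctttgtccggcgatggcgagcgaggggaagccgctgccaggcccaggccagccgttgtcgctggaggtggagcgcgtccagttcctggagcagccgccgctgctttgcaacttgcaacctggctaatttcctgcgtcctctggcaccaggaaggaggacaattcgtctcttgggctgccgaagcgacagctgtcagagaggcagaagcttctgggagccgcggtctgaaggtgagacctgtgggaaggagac
Hoxb4 promoter, chr11:96318017-96318316, plus strand: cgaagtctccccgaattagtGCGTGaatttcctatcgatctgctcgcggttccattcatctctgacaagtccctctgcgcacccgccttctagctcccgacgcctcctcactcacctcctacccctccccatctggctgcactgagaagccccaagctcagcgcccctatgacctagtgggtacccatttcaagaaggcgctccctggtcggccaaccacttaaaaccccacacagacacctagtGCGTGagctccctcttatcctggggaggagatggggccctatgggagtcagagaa
Hoxb8 promoter, chr11:96281655-96281954, plus strand: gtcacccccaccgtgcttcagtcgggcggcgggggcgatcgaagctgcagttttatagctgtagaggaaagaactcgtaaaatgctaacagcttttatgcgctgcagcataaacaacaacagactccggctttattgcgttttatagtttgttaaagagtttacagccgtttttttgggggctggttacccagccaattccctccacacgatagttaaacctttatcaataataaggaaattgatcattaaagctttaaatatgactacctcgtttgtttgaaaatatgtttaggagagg
One or both of these 5-base words stood in 43.8% of 32851 promoter windows of the same length and in 14 of the 24 Hox windows. Both words hold a CpG, a C followed by a G. The Hox windows had a median of 14.5 CpG and 57.67% GC, beside 7 CpG and 52.67% GC over all windows. The part of this in the 14 of 24 was not tested. Several of the 14 belong to HoxD genes, which were hardly expressed here. Among the expressed Hox genes with a window, Hoxa2, Hoxa3 and Hoxa5 held 1 GCGTG each and Hoxb4 held 2. The window of Hoxb8 held neither, but held TTTATNG, a caudal-type homeodomain word, 3 times and TGATNNAT, a PBX and HOX word, 1 time, on either strand and with N for any base. These words stood in 10.9% and 8.85% of all windows. A match of so few letters is a description and not a binding site.

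The microRNA genes of the HoxB cluster, Mir10a and Mir196a-1, encode the mature RNAs below, with the seed, bases 2 to 8, in capitals. The genes Mir10b of HoxD and Mir196b of HoxA share these seeds, and Mir196a-2 of HoxC encodes the same mature RNA as Mir196a-1. The third line is the stretch of the Hoxb8 3′ UTR that pairs with miR-196a-5p, at chr11:96284888-96284909 on the plus strand, with the bases opposite the seed in capitals.
miR-10a-5p: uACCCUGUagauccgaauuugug
miR-196a-5p: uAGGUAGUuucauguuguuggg
Hoxb8 3′ UTR site: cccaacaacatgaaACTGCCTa
All 22 bases of miR-196a-5p pair in this site, 21 as Watson-Crick pairs and 1, in the seed, as a G:U pair. Only 2 of 21877 protein-coding genes, Hoxb8 counted among them, held a site with as many paired bases. No other Hox gene had more than 19 paired bases.

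The expressed Hox code of these cells was Hoxb2 to Hoxb9 of HoxB and Hoxa2 to Hoxa7 of HoxA, with little of HoxC and HoxD. Per kb these HoxA genes all lay below Hoxb3 to Hoxb9 in every group. Of the 39 genes, 16 reached a mean of 1 CPM in at least 1 group. They include all of these and Hoxc13. HIF1a-ko hypoxia and R26 normoxia had 16 each and R26 hypoxia 15, since Hoxc13 was below 1 CPM there. Scaled to exon length, HoxB held 88.4% to 90.8% of the summed Hox signal in every library, HoxA 8.53% to 11.2%, HoxC 0.188% to 0.778% and HoxD 0.0248% to 0.277%.

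**Figure D1:**
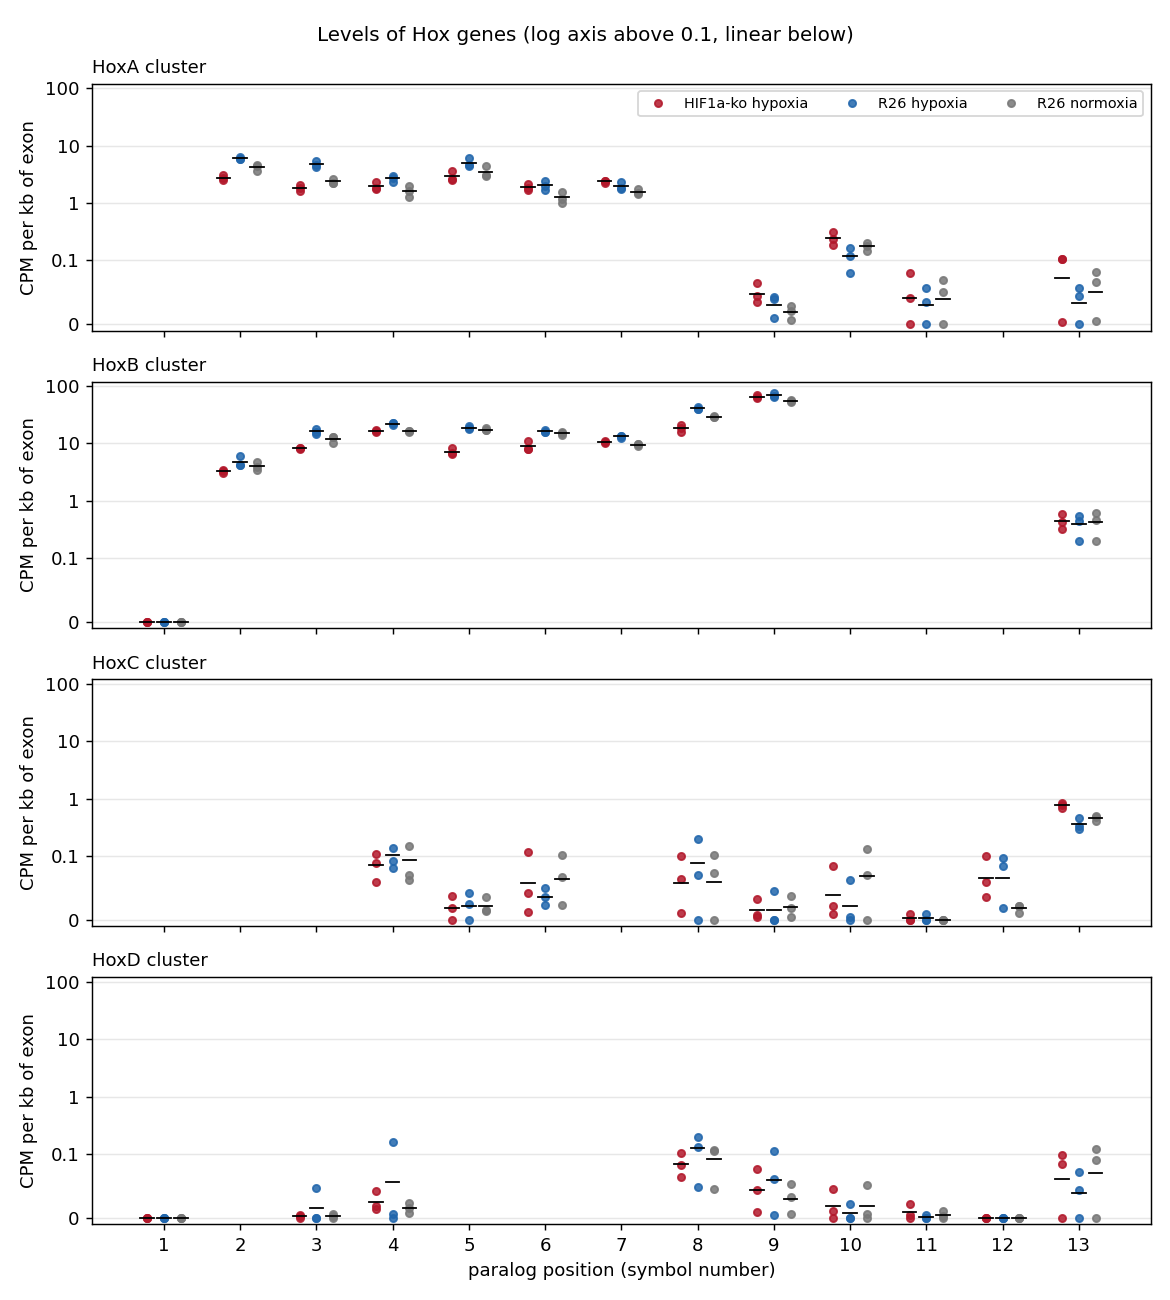
Level of Hox genes in CPM per kilobase of exon (y axis, logarithmic above 0.1 and linear below) against paralog position (x axis), with 1 panel per cluster. Points are libraries and short bars are group means. HoxB positions 2 to 9 and HoxA positions 2 to 7 stand above 1 in every group, and Hoxb9 is the highest gene at 65.4 in HIF1a-ko hypoxia, 68.9 in R26 hypoxia and 54.4 in R26 normoxia.

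Along HoxB the level per kilobase did not follow the order of the paralogs. Hoxb9 was the highest in all 3 groups, at 65.4 ± 3.79 CPM per kb in HIF1a-ko hypoxia, 68.9 ± 5.51 in R26 hypoxia and 54.4 ± 2.20 in R26 normoxia (SD, n = 3 each). Hoxb8 came next, at 18.2 ± 2.60, 41.3 ± 1.48 and 29.3 ± 1.24 CPM per kb in the same order of groups. In HIF1a-ko hypoxia the libraries of Hoxb8 overlapped those of Hoxb4, the gene below it. Hoxb5 ranked 7 in HIF1a-ko hypoxia at 7.24 ± 0.918 CPM per kb, 4 in R26 hypoxia at 18.8 ± 1.14 and 3 in R26 normoxia at 17.5 ± 0.690. Between Hoxb7, Hoxb6, Hoxb3 and Hoxb5, ranks 4 to 7 in HIF1a-ko hypoxia, each neighbour overlapped the next. The top 7 genes were HoxB members in every group. All expressed HoxA genes lay below these 7, though not all below Hoxb2: Hoxa2 stood above it in both R26 groups and Hoxa5 in R26 hypoxia by their means, and neighbours in that order overlapped. The highest HoxA gene was Hoxa5 in HIF1a-ko hypoxia at 2.90 ± 0.601 and Hoxa2 in R26 hypoxia at 6.01 ± 0.190 and R26 normoxia at 4.22 ± 0.486 CPM per kb. In every group the libraries of Hoxa5 overlapped those of Hoxa2.

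Summed by paralog position, the genes numbered 4 to 8 gave 71.0 ± 7.0 CPM per kb in HIF1a-ko hypoxia, 124 ± 3.5 in R26 hypoxia and 96.0 ± 3.5 in R26 normoxia (SD, n = 3 each). The genes numbered 1 to 3 gave 17.9 ± 0.51, 33.7 ± 1.1 and 24.0 ± 0.55 CPM per kb in the same order of groups. The genes numbered 9 to 13 gave 67.2 ± 3.6, 70.1 ± 5.0 and 55.8 ± 1.9 CPM per kb, and nearly all of this was Hoxb9. Hoxb9 alone was 41.9% ± 0.79 of the summed Hox signal in HIF1a-ko hypoxia, 30.2% ± 1.2 in R26 hypoxia and 30.9% ± 0.38 in R26 normoxia. These sums are descriptions with no test.

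HIF1a-ko hypoxia against R26 hypoxia asks how the Hox code differed between cells with the Hif1a guide and control cells at low oxygen. Each group carried 1 guide, so loss of HIF1a cannot be told apart from other differences between these cells. Of 24 Hox genes tested, 2 rose (Hoxa10 and Hoxc13), 10 fell (Hoxa2, Hoxa3, Hoxa5 and Hoxb2 to Hoxb8) and 12 did not pass the test. Over all 18211 genes tested 22.6% were called higher and 24.1% lower, so 46.8% were called in either direction. The median log2 fold change of the 24 genes was -0.37, beside -0.014 over all genes. In HoxB 7 of 9 tested genes fell and in HoxA 3 of 10. Calls are at an adjusted p under 0.05 in the edgeR quasi-likelihood test, adjusted by Benjamini-Hochberg over all genes tested, and each adjusted p below is of this test. The stellate and fibroblast marker list also moved here, with 1 of 14 markers higher and 6 lower, as did 2 lower of 6 epithelial markers and 2 higher and 1 lower of 6 endothelial markers. Of 3 acinar and islet markers tested 2 were lower, and of 4 neural crest and nerve markers 1 was higher. The part of these lists in the Hox result was not tested. In bulk RNA, fewer cells that express a gene and less RNA per cell cannot be told apart.

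Per-library levels below are in CPM and in the order of libraries 1 to 3. Among the middle HoxB genes, Hoxb5, known for its role in lung and enteric nerve development, was at 23.1, 18.9 and 18.5 CPM in HIF1a-ko hypoxia, against 50.1, 51.0 and 56.0 CPM in R26 hypoxia and 47.3, 47.8 and 50.9 CPM in R26 normoxia. All 3 HIF1a-ko libraries lay far below the lowest R26 library, and the 2 R26 groups overlapped. Its log2 fold change was -1.37 ± 0.09 (adjusted p = 1.83e-06), which is 2.59-fold lower. Hoxb8, a gene of myeloid and microglial cells and of the trunk, was at 54.9, 41.2 and 48.1 CPM in HIF1a-ko hypoxia, against 107, 106 and 113 CPM in R26 hypoxia and 75.0, 75.6 and 80.9 CPM in R26 normoxia. The 3 groups did not overlap, and HIF1a-ko hypoxia was lowest. Hoxb8 fell by 1.18 ± 0.09 on the log2 scale against R26 hypoxia (adjusted p = 6.11e-06).

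Hoxb6, a gene of lateral plate mesoderm, was at 21.3, 15.5 and 15.9 CPM in HIF1a-ko hypoxia, against 31.1, 31.0 and 33.4 CPM in R26 hypoxia and 27.5, 30.1 and 31.5 CPM in R26 normoxia. The HIF1a-ko libraries lay below all R26 libraries, and the 2 R26 groups overlapped. The log2 fold change of Hoxb6 was -0.85 ± 0.12 (adjusted p = 0.000254). Hoxb4, known for expanding blood stem cells, was at 44.5, 40.3 and 42.8 CPM in HIF1a-ko hypoxia, against 58.6, 57.7 and 54.1 CPM in R26 hypoxia and 42.5, 41.4 and 41.7 CPM in R26 normoxia. HIF1a-ko hypoxia and R26 normoxia overlapped, and both lay below R26 hypoxia. The log2 fold change of Hoxb4 was -0.42 ± 0.05 (adjusted p = 0.000136). Hoxb7, a gene of the thoracic trunk, was at 17.1, 16.1 and 15.6 CPM in HIF1a-ko hypoxia, against 20.6, 19.6 and 21.2 CPM in R26 hypoxia and 15.003, 15.3 and 13.97 CPM in R26 normoxia. R26 hypoxia was again the highest group with no overlap, and the log2 fold change of Hoxb7 was -0.33 ± 0.06 (adjusted p = 0.00213).

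Of the anterior HoxB genes, Hoxb3, a gene of the hindbrain and neck, was at 35.8, 34.0 and 36.2 CPM in HIF1a-ko hypoxia, against 77.0, 68.3 and 61.6 CPM in R26 hypoxia and 54.7, 55.2 and 43.1 CPM in R26 normoxia. The 3 groups did not overlap, and the log2 fold change was -0.96 ± 0.11 (adjusted p = 6.25e-05). Annotated exons of the antisense gene Hoxb3os cover 52.9% of the exon length of Hoxb3 and 27.3% of that of Hoxb2. The strand setting of the counting is not given in the sources used here, so reads of these genes and their antisense partner cannot be told apart. Hoxb2, a hindbrain gene, was at 12.2, 10.6 and 11.7 CPM in HIF1a-ko hypoxia, against 14.9, 14.4 and 20.8 CPM in R26 hypoxia and 12.0, 13.6 and 16.6 CPM in R26 normoxia. HIF1a-ko hypoxia lay below R26 hypoxia and overlapped R26 normoxia. The log2 fold change of Hoxb2 was -0.55 ± 0.16 (adjusted p = 0.0176), and the call was lost without HIF1a-ko hypoxia 2 (0.0634), HIF1a-ko hypoxia 3 (0.0525) or R26 hypoxia 3 (0.0525).

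Hoxb9, a gene of the thoracic ribs and the highest Hox gene here per kb, was at 177, 158 and 169 CPM in HIF1a-ko hypoxia, against 173, 166 and 193 CPM in R26 hypoxia and 134, 139.8 and 146 CPM in R26 normoxia. HIF1a-ko hypoxia overlapped R26 hypoxia, and both lay above R26 normoxia. Its log2 fold change between the hypoxic groups was -0.08 ± 0.07 (adjusted p = 0.394), so it is the only expressed HoxB gene that was not called in this comparison. The ratio of Hoxb8 to Hoxb9 per kb was 0.278 ± 0.024 in HIF1a-ko hypoxia, 0.601 ± 0.026 in R26 hypoxia and 0.539 ± 0.0092 in R26 normoxia (SD, n = 3 each). That of Hoxb5 to Hoxb4 was 0.436 ± 0.041, 0.851 ± 0.089 and 1.07 ± 0.050 in the same order of groups. Neither ratio overlapped between any 2 groups. The exact two-sided permutation p was 0.1 for each pair of groups, the smallest that 3 against 3 libraries allow. Both ratios were chosen after their values were seen.

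**Figure D2:**
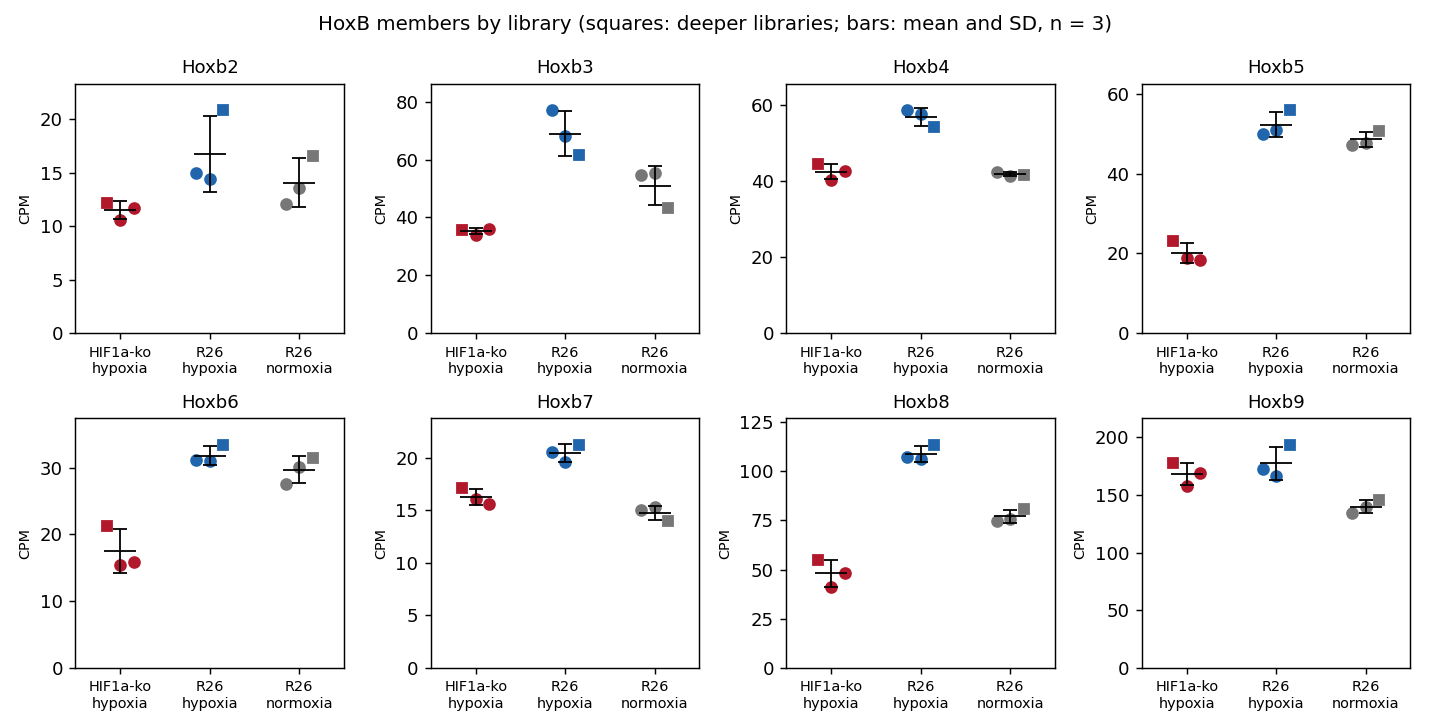
Level of the 8 expressed HoxB genes in each library in CPM (y axis, from 0), with HIF1a-ko hypoxia, R26 hypoxia and R26 normoxia from left to right. Squares are the deeper libraries, circles the shallower ones, and bars give the mean and SD of 3 libraries. Hoxb5 stands at 18.5 to 23.1 CPM in HIF1a-ko hypoxia and at 47.3 to 56.0 CPM in the 6 R26 libraries, while Hoxb9 overlaps between the hypoxic groups.

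In HoxA, Hoxa3, a gene of thymus, parathyroid and neck vessel development, was at 12.5, 10.8 and 9.87 CPM in HIF1a-ko hypoxia, against 25.8, 28.0 and 32.3 CPM in R26 hypoxia and 13.5, 13.3 and 16.0 CPM in R26 normoxia. The 3 groups did not overlap, with R26 hypoxia highest and HIF1a-ko hypoxia lowest. Its log2 fold change was -1.37 ± 0.12 (adjusted p = 1.15e-05), or 2.59-fold lower. Of its exon length 27.1% is shared with 5 other annotated genes, of which 4 lie on the opposite strand. Hoxa2, the selector gene of the second pharyngeal arch, was at 4.77, 5.38 and 4.52 CPM in HIF1a-ko hypoxia, against 10.4, 10.5 and 11.1 CPM in R26 hypoxia and 6.51, 7.83 and 8.13 CPM in R26 normoxia. The groups were apart in the same order, and the log2 fold change was -1.13 ± 0.10 (adjusted p = 1.75e-05). Hoxa5, a gene of lung, trachea and neck vertebrae, was at 6.74, 4.85 and 4.72 CPM in HIF1a-ko hypoxia, against 8.66, 8.40 and 11.4 CPM in R26 hypoxia and 5.65, 5.67 and 8.34 CPM in R26 normoxia. HIF1a-ko hypoxia lay below R26 hypoxia and overlapped R26 normoxia, and the log2 fold change was -0.79 ± 0.20 (adjusted p = 0.00967).

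Hoxa4, Hoxa6 and Hoxa7 were not called between the hypoxic groups. Hoxa4, a gene of the neck vertebrae, was at 3.75, 2.78 and 2.87 CPM in HIF1a-ko hypoxia, against 3.76, 4.38 and 4.79 CPM in R26 hypoxia and 3.10, 2.04 and 2.61 CPM in R26 normoxia. Its log2 fold change was -0.45 ± 0.17 (adjusted p = 0.0557), although the groups did not overlap. Hoxa6, a gene of the trunk vertebrae, was at 1.60, 1.84 and 1.49 CPM in HIF1a-ko hypoxia, against 1.501, 2.13 and 1.70 CPM in R26 hypoxia and 1.04, 0.883 and 1.38 CPM in R26 normoxia. It overlapped between the hypoxic groups, with a log2 fold change of -0.11 ± 0.19 (adjusted p = 0.683). Hoxa7, another trunk gene, was at 7.08, 6.53 and 6.92 CPM in HIF1a-ko hypoxia, against 6.61, 5.15 and 5.10 CPM in R26 hypoxia and 4.18, 4.32 and 5.07 CPM in R26 normoxia. Its log2 fold change was 0.30 ± 0.12 (adjusted p = 0.0712), and the hypoxic groups overlapped through R26 hypoxia 1.

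The 2 genes that rose have high paralog numbers and were low. Hoxc13, which controls keratin genes of hair and nail, was at 2.05, 1.70 and 1.95 CPM in HIF1a-ko hypoxia, against 0.827, 1.13 and 0.728 CPM in R26 hypoxia and 1.18, 1.23 and 1.02 CPM in R26 normoxia. No R26 library reached the lowest HIF1a-ko library, and the log2 fold change was 1.15 ± 0.19 (adjusted p = 0.000874). Hoxa10, a gene of the uterus and lumbar vertebrae, was at 0.614, 0.757 and 1.02 CPM in HIF1a-ko hypoxia, against 0.392, 0.537 and 0.265 CPM in R26 hypoxia and 0.587, 0.650 and 0.484 CPM in R26 normoxia. HIF1a-ko hypoxia lay above R26 hypoxia and overlapped R26 normoxia. The log2 fold change of Hoxa10 was 1.05 ± 0.32 (adjusted p = 0.0224), and the call was lost without HIF1a-ko hypoxia 2 (0.0507), HIF1a-ko hypoxia 3 (0.0659) or R26 hypoxia 3 (0.139).

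**Figure D3:**
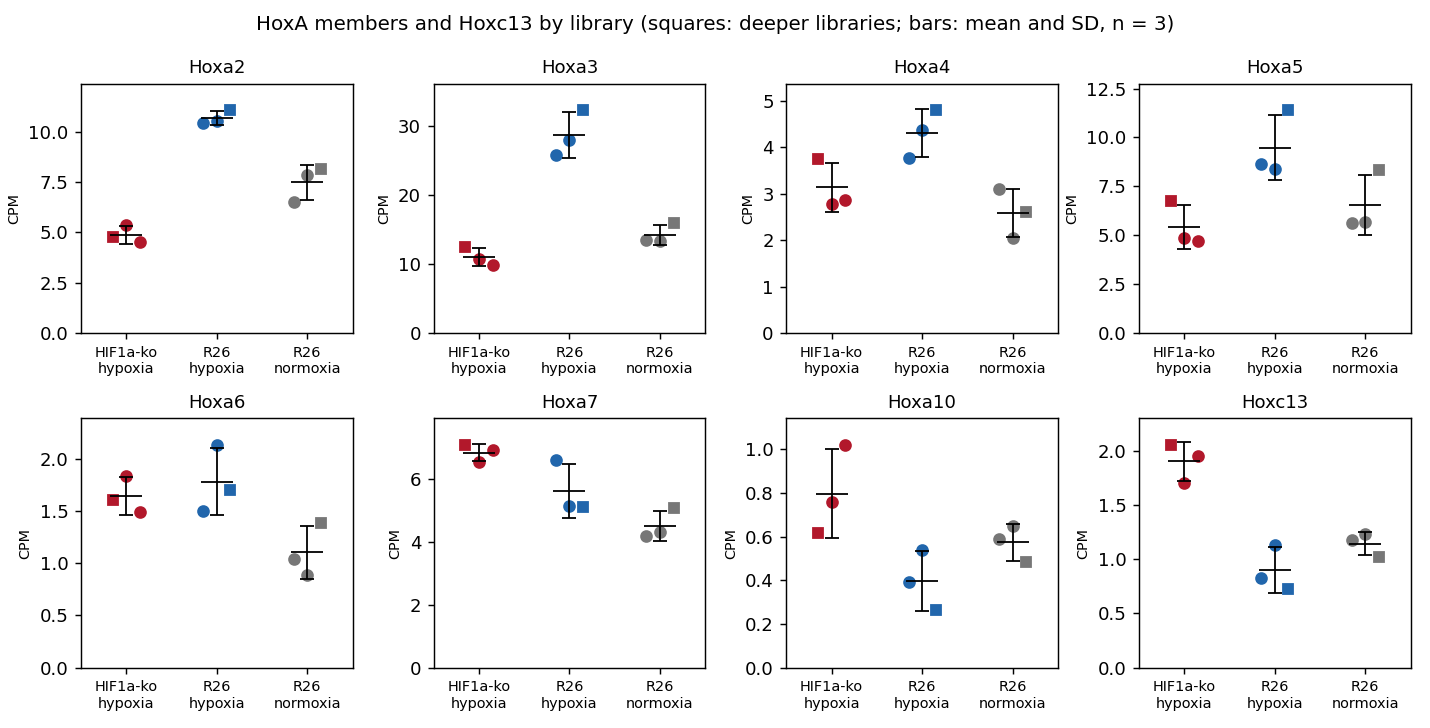
Level of Hoxa2 to Hoxa7, Hoxa10 and Hoxc13 in each library in CPM (y axis, from 0), with HIF1a-ko hypoxia, R26 hypoxia and R26 normoxia from left to right. Squares are the deeper libraries, circles the shallower ones, and bars give the mean and SD of 3 libraries. Hoxa3 stands at 9.87 to 12.5 CPM in HIF1a-ko hypoxia and 25.8 to 32.3 CPM in R26 hypoxia, and Hoxc13 stands highest in HIF1a-ko hypoxia.

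Over the 24 tested genes the libraries of the 2 hypoxic groups did not overlap in 13, or 54.2%, beside 54.6% of all genes. The share of Hox genes called in either direction, 12 of 24, was near the 46.8% of all genes, whereas the 41.7% that fell stood beside 24.1%. A log2 fold change of at least 1 in size and an adjusted p under 0.05 were reached by 6 of 24 Hox genes (Hoxa2, Hoxa3, Hoxa10, Hoxb5, Hoxb8 and Hoxc13), beside 11.4% of all genes. In the 6 shallower libraries alone 13 Hox genes were called, 2 higher and 11 lower, and of all genes tested there 26.2% were called higher and 25.6% lower. All 15 expressed HoxA and HoxB genes had the same sign in the deeper pair of libraries as in the shallower ones. The deeper pair is 1 library against 1, and the share of all genes with the same sign is not given.

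R26 hypoxia against R26 normoxia asks how the Hox code of control cells stood at low oxygen. Of 24 Hox genes tested, 8 rose (Hoxa2, Hoxa3, Hoxa4, Hoxb3, Hoxb4, Hoxb7, Hoxb8 and Hoxb9), 0 fell and 16 did not pass the edgeR test. Over all genes 13.1% were called higher and 12.7% lower, so 25.8% were called in either direction. None of the 24 had an unadjusted p under 0.05 with a negative fold change, and DESeq2 also called 0 lower. The median log2 fold change of the 24 genes was 0.41, beside -0.0096 over all genes. The libraries of the groups did not overlap in 12 of 24 genes, or 50%, beside 38.4% of all genes. Of the stellate and fibroblast markers 3 of 14 were higher and 2 lower here, 2 of 6 epithelial markers were higher and 1 of 6 endothelial markers was lower. The part of these lists in the Hox result was not tested.

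The changes were small, and Hoxa3 was the largest of them. It averaged 28.7 ± 3.32 CPM in R26 hypoxia and 14.3 ± 1.48 CPM in R26 normoxia (SD, n = 3 each), a log2 fold change of 1.01 ± 0.12 (adjusted p = 0.000297). It is the 1 Hox gene of 24 whose log2 fold change was called and at least 1 in size, beside 3.33% of all genes. Hoxa4 followed at 0.75 ± 0.18 (adjusted p = 0.0133) and Hoxa2 at 0.51 ± 0.10 (adjusted p = 0.00552). The 5 HoxB genes that rose did so by similar amounts, from 0.34 ± 0.07 for Hoxb9 (adjusted p = 0.00522) to 0.50 ± 0.09 for Hoxb8 (adjusted p = 0.00358). Between them stood Hoxb3 at 0.44 ± 0.11 (adjusted p = 0.0147), Hoxb4 at 0.44 ± 0.05 (adjusted p = 0.000345) and Hoxb7 at 0.48 ± 0.06 (adjusted p = 0.000727). Hoxb5 and Hoxb6, neighbours in the middle of the cluster, overlapped between the groups, with log2 fold changes of 0.11 ± 0.09 (adjusted p = 0.440) and 0.10 ± 0.12 (adjusted p = 0.613).

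Hoxa5, Hoxa6 and Hoxa7 did not overlap between the groups and were not called, with log2 fold changes of 0.52, 0.62 and 0.28 and adjusted p of 0.0925, 0.0592 and 0.144. Libraries with the same number deviated together in the 2 R26 groups, but libraries 1 and 2 did so across numbers as well. A fit of these groups alone with the replicate number as a block was added after seeing the data. With the replicate block 13 of 21 Hox genes tested rose and 0 fell, beside 22.5% of all genes higher and 20.1% lower, with the added ones including Hoxa5 (0.000578), Hoxa6 (0.0407), Hoxb2 (0.00919) and Hoxb5 (0.0316), each by its adjusted p. Number 3 is also the deeper library in both R26 groups. In the 6 shallower libraries alone 11 Hox genes rose and 0 fell, beside 15.5% of all genes higher and 14.6% lower. All 15 expressed HoxA and HoxB genes had the same sign in the deeper pair as in the shallower libraries. The deeper pair is 1 library against 1, so this describes signs and not sizes. The log2 ratio of Hoxa7 was 0.0083 in the deeper pair and 0.47 in the shallower libraries, and that of Hoxa6 0.30 and 0.92. That of Hoxa4 was larger in the deeper pair, at 0.88 and 0.66. The share of all genes with the same sign is not given.

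**Figure D4:**
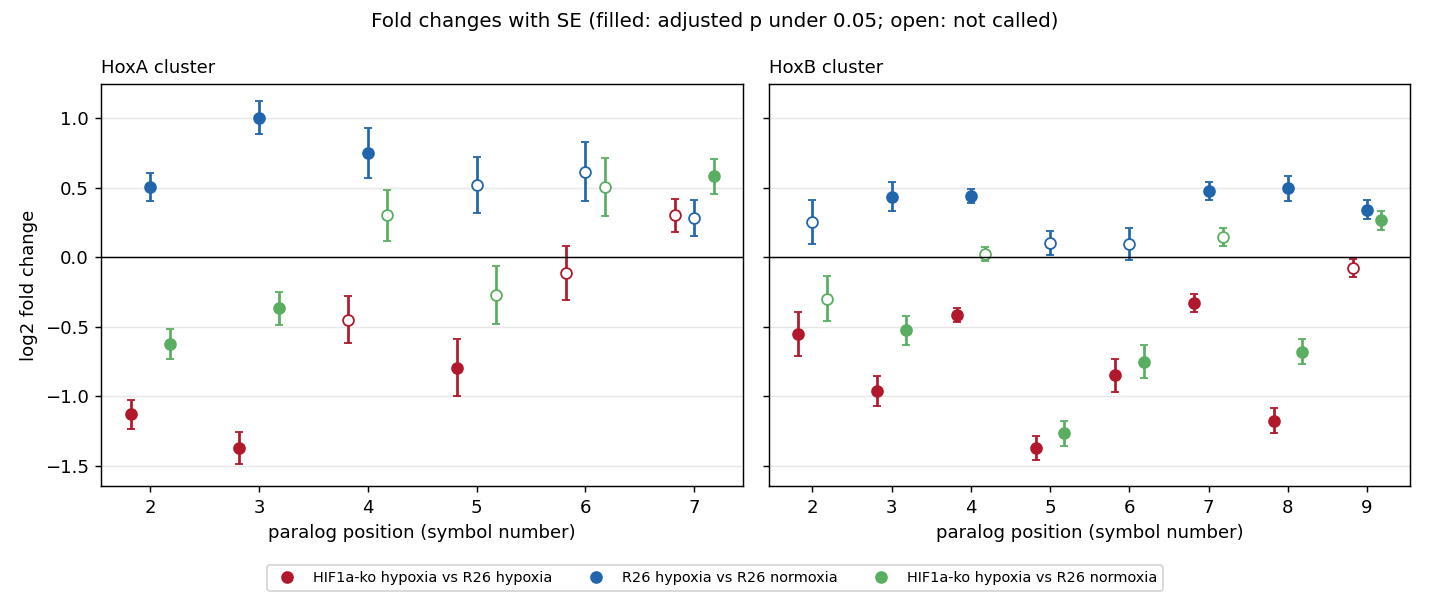
Log2 fold change with its SE (y axis) of Hoxa2 to Hoxa7 (left) and Hoxb2 to Hoxb9 (right) against paralog position (x axis) in the 3 comparisons. Filled points passed an adjusted p under 0.05 and open points did not. The lowest points of HIF1a-ko hypoxia against R26 hypoxia are Hoxa3 and Hoxb5, both at -1.37, and Hoxb9 stands at -0.08. Comparisons that share a group are not independent of each other.

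HIF1a-ko hypoxia against R26 normoxia sets the cells that differ in both guide and oxygen side by side. Of 24 Hox genes tested, 3 rose (Hoxa7, Hoxb9 and Hoxc13), 6 fell (Hoxa2, Hoxa3, Hoxb3, Hoxb5, Hoxb6 and Hoxb8) and 15 did not pass the test. Over all genes 19.9% were called higher and 22.1% lower, so 42% were called in either direction, beside 9 of these 24. The libraries did not overlap in 12 of 24 genes, or 50%, beside 53.2% of all genes. This comparison shares 1 group with each of the other two. Of the stellate and fibroblast markers 1 of 14 was higher and 7 were lower here. Of 3 acinar and islet markers tested 2 were lower, of 6 endothelial markers 2 were higher and 1 lower, and of 4 neural crest and nerve markers 1 was lower. The part of these lists was likewise not tested.

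Hoxb5 fell the most, by 1.27 ± 0.09 on the log2 scale, with 20.2 ± 2.56 CPM in HIF1a-ko hypoxia and 48.7 ± 1.92 CPM in R26 normoxia (SD, n = 3 each, adjusted p = 4.10e-06). It is the 1 Hox gene of 24 here that was called with a log2 fold change of at least 1 in size, beside 9.61% of all genes. Hoxb6 followed at -0.75 ± 0.12 (adjusted p = 0.000688), Hoxb8 at -0.68 ± 0.09 (adjusted p = 0.000264), Hoxa2 at -0.62 ± 0.11 (adjusted p = 0.00115) and Hoxb3 at -0.53 ± 0.11 (adjusted p = 0.00324). Hoxa3 stood at -0.37 ± 0.12 (adjusted p = 0.0331), and this call was lost in several alternatives. Its adjusted p was 0.0897 without HIF1a-ko hypoxia 2, 0.150 without HIF1a-ko hypoxia 3, 0.171 without R26 normoxia 3, 0.0854 with no filter on low counts and 0.0516 with a replicate block. Hoxa7 rose by 0.58 ± 0.13 (adjusted p = 0.00443), Hoxb9 by 0.27 ± 0.07 (adjusted p = 0.0103) and Hoxc13 by 0.77 ± 0.19 (adjusted p = 0.00851) on the log2 scale. Hoxb4, with 42.5 ± 2.09 CPM in HIF1a-ko hypoxia and 41.8 ± 0.559 CPM in R26 normoxia, had a log2 fold change of 0.02 ± 0.05 (adjusted p = 0.767). It is the one expressed gene of the 15 in HoxA and HoxB whose sign differed between the deeper pair and the shallower libraries. In the 6 shallower libraries alone 10 Hox genes were called, 4 higher and 6 lower, beside 23.8% of all genes higher and 22.6% lower.

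The remaining 23 Hox genes stayed below a mean of 1 CPM in every group, and 8 of them passed the filter on low counts (Hoxa9, Hoxa10, Hoxa13, Hoxb13, Hoxc4, Hoxc8, Hoxd8 and Hoxd13). The other 15 were not tested, and their highest level in any library was 0.477 CPM, or 24 counts. Hoxb1, Hoxd1 and Hoxd12 had 0 counts in all 9 libraries, which allows a level of up to 0.0284 to 0.0697 CPM per library (3 counts, counting error only). Of the 39 genes 24 had at least 1 count in every library.

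Several of these low genes had most or all of their counts in the shallower libraries. Hoxd13, a digit and hindgut gene, had 0 counts in all 3 deeper libraries and 5 to 13 counts in the 6 shallower ones. Hoxa11, a gene of the forearm and uterus, had 0 counts in the deeper and 4 to 9 in the shallower libraries. Hoxa13, a gene of limb tip and hindgut, had 0 to 1 and 5 to 14 counts, and Hoxc8, a trunk gene, had 0 to 3 and 9 to 26 counts in the same order. A count of 0 in the deeper libraries allows up to 0.0284 to 0.0338 CPM. Hoxb13, a gene of prostate and hindgut, averaged 0.531 CPM in the deeper and 1.13 CPM in the shallower libraries. The summed intestinal markers moved in the same libraries, and their part in these low Hox values was not tested. Over the 24 tested genes edgeR called 7 higher and 7 lower in the deeper libraries, beside 29% of all genes in either direction. The 7 that were higher are expressed HoxA and HoxB genes at log2 differences of 0.13 (Hoxb9) to 0.49 (Hoxa5). Of the 7 that were lower, Hoxb3 was the 1 gene that reached a mean of 1 CPM in any group, at -0.19.

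**Figure D5:**
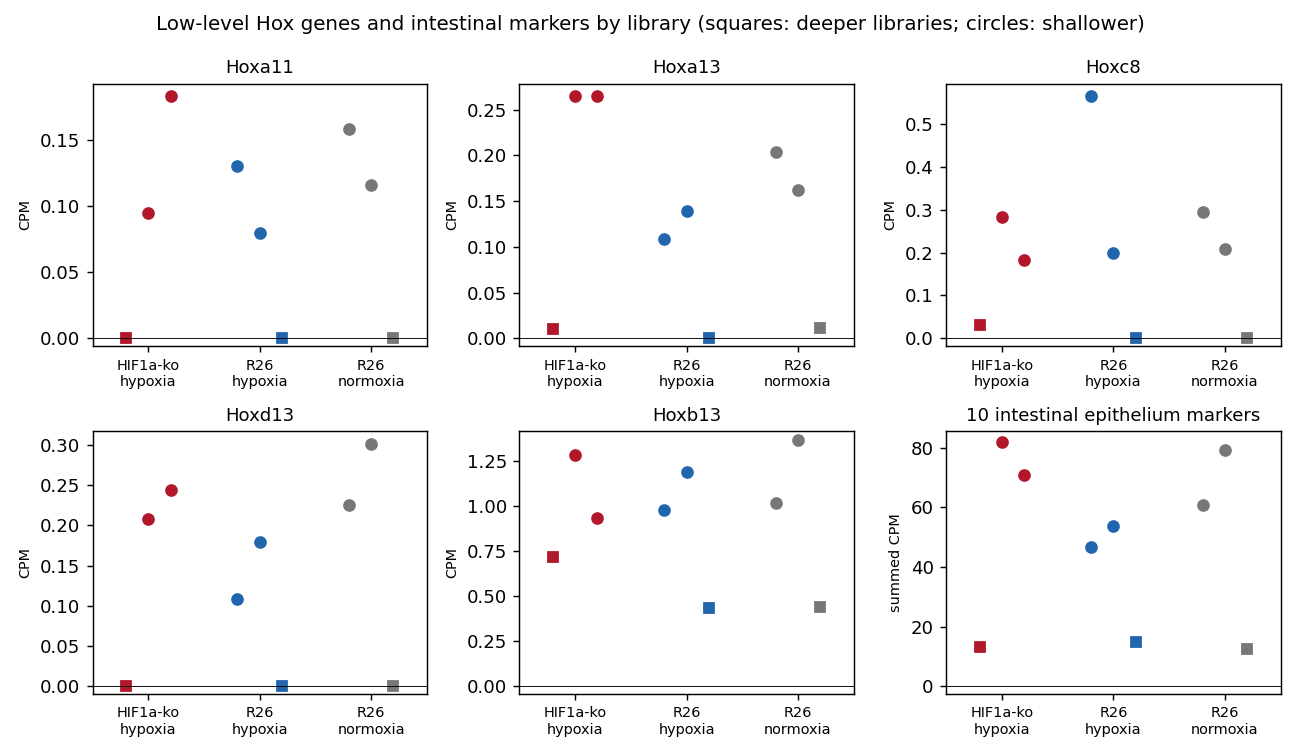
Level in CPM (y axis) of 5 Hox genes under or near 1 CPM, and the summed CPM of 10 intestinal epithelium markers, in each library, with HIF1a-ko hypoxia, R26 hypoxia and R26 normoxia from left to right. Squares are the 3 deeper libraries and circles the 6 shallower ones. In every group the deeper library is the lowest, and Hoxa11 and Hoxd13 are at 0 in all 3 deeper libraries.

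Noncoding genes lie between the Hox genes, and many of them are antisense to a Hox gene. The 4 clusters hold 47 noncoding genes within 5000 bases, of which 15 were tested. In HIF1a-ko hypoxia against R26 hypoxia 1 rose and 9 fell, beside 22.6% of all genes higher and 24.1% lower, and their median log2 fold change was -0.82 beside -0.014 over all genes. In R26 hypoxia against R26 normoxia 8 rose and 0 fell by edgeR, beside 13.1% and 12.7% of all genes. DESeq2 also called 8 higher and 0 lower there, and at an unadjusted p under 0.05 9 were higher and 0 lower. In HIF1a-ko hypoxia against R26 normoxia 1 rose and 3 fell, beside 19.9% and 22.1% of all genes. Hoxaas2, which overlaps the 3′ part of Hoxa3 on the opposite strand, was at 4.68, 4.71 and 4.38 CPM in HIF1a-ko hypoxia, against 12.8, 12.6 and 12.7 CPM in R26 hypoxia and 8.09, 7.73 and 7.81 CPM in R26 normoxia. The 3 groups did not overlap, and Hoxaas2 had log2 fold changes of -1.46 ± 0.07 (adjusted p = 2.73e-07) between the hypoxic groups and 0.69 ± 0.07 (adjusted p = 0.000108) between the R26 groups. Gm15050, at 2.06 ± 0.0886 CPM in HIF1a-ko hypoxia and 5.24 ± 0.0992 CPM in R26 hypoxia (SD, n = 3 each), fell by 1.33 ± 0.11 (adjusted p = 7.23e-06). Hoxaas3, Gm29430 and Gm27861 of HoxA and Gm11536 of HoxB fell, with log2 fold changes of -1.05, -1.81, -1.51 and -1.37 in the same comparison. Gm15050, Gm29430 and most of Hoxaas3 lie inside the Hoxa3 interval, Gm11536 inside that of Hoxb3 and Gm27861 inside that of Hotairm1. Gm29430 shares 437 exon bases with Hoxa3 and 255 with Hoxa4. Without the strand setting, reads of such overlapping genes cannot be told apart, so these may not all be separate results. Hoxb5os, antisense to Hoxb5, was the 1 noncoding gene that rose between the hypoxic groups. It was at 22.6, 20.5 and 21.3 CPM in HIF1a-ko hypoxia, against 15.1, 15.2 and 11.02 CPM in R26 hypoxia and 11.5, 12.8 and 9.46 CPM in R26 normoxia. Every HIF1a-ko library lay above every R26 library. The log2 fold change of Hoxb5os was 0.66 ± 0.14 (adjusted p = 0.00359) against R26 hypoxia, while Hoxb5 itself fell in this comparison. Hoxb5 and Hoxb5os share 100 exon bases, which is 3.59% of the exon length of Hoxb5, while the exons of Hoxb5os total 696 bases. The Hoxb5os interval spans Hoxb6 and Hoxb5 on the opposite strand, so the limit of the unknown strand setting holds here too.

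The intervals of the 2 HoxB microRNA genes also held counts. Since the RNA was poly-A selected, these are taken as reads of longer transcripts across the hairpins and not of mature microRNAs. This was not tested. Mir196a-1 was at 4.39, 5.15 and 4.64 CPM in HIF1a-ko hypoxia, against 7.20, 7.46 and 3.68 CPM in R26 hypoxia and 5.42, 5.64 and 3.25 CPM in R26 normoxia. The groups overlapped, with the lowest values in R26 hypoxia 3 and R26 normoxia 3, and the log2 fold change between the hypoxic groups was -0.33 ± 0.29 (adjusted p = 0.392), beside the fall of Hoxb8, whose site is shown above. Mir10a was at 3.15, 4.35 and 3.97 CPM in HIF1a-ko hypoxia, against 3.81, 3.50 and 3.94 CPM in R26 hypoxia and 3.05, 3.16 and 2.58 CPM in R26 normoxia, with a log2 fold change of -0.00055 ± 0.14 (adjusted p = 0.998) between the hypoxic groups. Mir10b, Mir196a-2 and Mir196b had 0 counts in all libraries. All 85 bases of Mir196b lie within Hoxa9 exons on the same strand. How reads shared by 2 genes were counted is not given, so its 0 does not show that no reads crossed it. Hoxb5os and these microRNA genes lie outside the rule for named genes and were chosen after their values were seen.

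The TALE partners of HOX proteins were all tested. Their list of 10 also holds Pbxip1, a PBX-binding protein that is not itself a TALE protein. Pbxip1 is 1 of the 7 that fell between the hypoxic groups. In HIF1a-ko hypoxia against R26 hypoxia 2 of 10 rose and 7 fell, beside 22.6% of all genes higher and 24.1% lower, and their median log2 fold change was -0.42 beside -0.014 over all genes. In R26 hypoxia against R26 normoxia 2 rose and 2 fell, beside 13.1% and 12.7% of all genes. In HIF1a-ko hypoxia against R26 normoxia 2 rose and 7 fell, beside 19.9% and 22.1% of all genes. Meis1 was at 125, 132 and 119.9 CPM in HIF1a-ko hypoxia, against 177, 184 and 177 CPM in R26 hypoxia and 206, 207 and 209.5 CPM in R26 normoxia. The 3 groups did not overlap, and R26 normoxia was highest. Meis1 fell in all 3 comparisons, at -0.51 ± 0.04 (adjusted p = 1.21e-05), -0.21 ± 0.04 (adjusted p = 0.00675) and -0.72 ± 0.04 (adjusted p = 1.79e-06) in the order given above. Meis3 behaved likewise at -0.73 ± 0.07 (adjusted p = 2.21e-05), -0.32 ± 0.07 (adjusted p = 0.00747) and -1.05 ± 0.07 (adjusted p = 2.79e-06).

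Meis2 and Pknox2 rose in R26 hypoxia against R26 normoxia, at 0.28 ± 0.04 (adjusted p = 0.000864) and 0.22 ± 0.05 (adjusted p = 0.00708), and fell in HIF1a-ko hypoxia against R26 hypoxia, at -0.32 ± 0.04 (adjusted p = 0.000127) and -0.42 ± 0.05 (adjusted p = 5.82e-05). These 2 comparisons share the R26 hypoxia libraries. Pbx2 and Pbxip1, a PBX-binding protein, fell between the hypoxic groups, at -0.45 ± 0.07 (adjusted p = 0.000621) and -0.41 ± 0.04 (adjusted p = 5.48e-05). Pbx3 was the partner that rose most, at 13.5, 11.8 and 13.1 CPM in HIF1a-ko hypoxia, against 7.66, 7.64 and 9.36 CPM in R26 hypoxia and 7.64, 8.48 and 8.95 CPM in R26 normoxia. HIF1a-ko hypoxia did not overlap either R26 group. The log2 fold change of Pbx3 was 0.63 ± 0.10 (adjusted p = 0.000824) against R26 hypoxia. Pbx4 rose by 0.44 ± 0.12 (adjusted p = 0.0153) between the hypoxic groups, and this call was lost without HIF1a-ko hypoxia 1 (0.0517) or R26 hypoxia 2 (0.0560). Pknox1 was not called there, at -0.08 ± 0.11 (adjusted p = 0.593).

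Of 24 Polycomb and trithorax genes, which keep Hox clusters silent or active, 9 rose and 9 fell in HIF1a-ko hypoxia against R26 hypoxia, 4 rose and 3 fell in R26 hypoxia against R26 normoxia, and 8 rose and 8 fell in HIF1a-ko hypoxia against R26 normoxia. Of all genes 46.8%, 25.8% and 42% were called in either direction in the same order, so 7 of 24 between the R26 groups is near that share. Phf19, an accessory subunit of Polycomb repressive complex 2, was at 25.4, 22.2 and 25.6 CPM in HIF1a-ko hypoxia, against 6.24, 4.36 and 5.94 CPM in R26 hypoxia and 5.04, 6.11 and 6.11 CPM in R26 normoxia. HIF1a-ko hypoxia was far above both R26 groups, and the log2 fold change of Phf19 was 2.14 ± 0.13 (adjusted p = 1.36e-06) against R26 hypoxia. The catalytic subunit Ezh2 was at 59.0, 57.8 and 60.8 CPM in HIF1a-ko hypoxia, against 27.4, 27.5 and 31.5 CPM in R26 hypoxia and 26.7, 27.1 and 30.4 CPM in R26 normoxia, and its log2 fold change between the hypoxic groups was 1.03 ± 0.07 (adjusted p = 3.01e-06). The core subunit Suz12 rose by 0.67 ± 0.09 (adjusted p = 0.000208). Ezh1, the alternative catalytic subunit, fell, at -0.63 ± 0.07 (adjusted p = 6.14e-05). Cbx7, a subunit of Polycomb repressive complex 1, fell at -0.95 ± 0.09 (adjusted p = 1.71e-05), and Kdm6b, a demethylase that removes the Polycomb mark, fell at -0.96 ± 0.09 (adjusted p = 1.61e-05). Kdm6b rose in R26 hypoxia against R26 normoxia, at 0.65 ± 0.09 (adjusted p = 0.000636).

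Retinoic acid switches on anterior Hox genes in the embryo. Of 17 tested genes of this pathway, 2 rose and 7 fell in HIF1a-ko hypoxia against R26 hypoxia, 2 rose and 1 fell in R26 hypoxia against R26 normoxia, and 0 rose and 6 fell in HIF1a-ko hypoxia against R26 normoxia. The numbers called in either direction, 9, 3 and 6 of 17, stood beside 46.8%, 25.8% and 42% of all genes. None is far from that share. The 7, 1 and 6 that fell stood beside 24.1%, 12.7% and 22.1% of all genes lower. In the last comparison DESeq2 called 0 higher and 7 lower, and 1 gene was higher at an unadjusted p under 0.05. The receptor Rara fell between the hypoxic groups at -0.61 ± 0.06 (adjusted p = 4.07e-05), the retinol dehydrogenase Rdh10 at -0.54 ± 0.11 (adjusted p = 0.00235) and the reductase Dhrs3 at -0.73 ± 0.11 (adjusted p = 0.000519). The 2 that rose, Cyp26a1 and Cyp26c1, were under 1 CPM in each group. The degrading enzyme Cyp26b1 was at 5.11 ± 0.629 CPM in HIF1a-ko hypoxia and 8.01 ± 1.22 CPM in R26 hypoxia (SD, n = 3 each), and fell at -0.66 ± 0.14 (adjusted p = 0.00348). In R26 hypoxia against R26 normoxia Cyp26b1 rose at 0.91 ± 0.14 (adjusted p = 0.00174) and Dhrs3 at 0.76 ± 0.11 (adjusted p = 0.00125). Aldh1a2, an enzyme that makes retinoic acid, was at 0.416 ± 0.281 CPM in HIF1a-ko hypoxia and 1.55 ± 0.191 CPM in R26 normoxia, and fell at -2.12 ± 0.47 (adjusted p = 0.00539). Of 10 caudal and other upstream homeobox genes 1 passed the filter on low counts, and it was called in none of the 3 comparisons.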

How the data were processed

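The files hold raw counts of reads per gene for 49315 gene identifiers in 9 libraries, deposited by the authors. The submitters' processing notes name DESeq2, featureCounts, STAR, Trimmomatic and bcl2fastq 2.17 with no role or order. For annotation release and strand setting, the value is not given in the sources used here. RNA was poly-A selected with a NEBNext Ultra RNA kit, per the labels' protocols. Of the identifiers 49056 were named from GENCODE M21 (GRCm38), whose exon unions gave lengths.

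Counts were tested with edgeR 4.0.16 (R 4.3.3, quasi-likelihood, two-sided, TMM, filterByExpr) in 1 fit of all 9 libraries with group as the only term. Benjamini-Hochberg adjustment ran over all 18211 genes tested, and a gene is called at an adjusted p under 0.05. CPM are scaled by TMM library sizes, and ± is the SD of 3 libraries, or the SE beside a log2 fold change. The script was tested on simulated data. DESeq2 1.42.0 and other alternatives stand in the closing section. The depth limits low genes: 3 counts are 0.0284 to 0.0697 CPM per library. No 2 libraries of a group matched within sampling noise (chi-square per degree of freedom 6.18 to 63.0).

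Same-numbered libraries of the 2 R26 groups deviated together (correlation 0.480, 0.530 and 0.855 over genes for numbers 1, 2 and 3), so the replicate block is given beside that comparison. Their libraries 1 and 2 correlated as much across numbers (0.587 and 0.498), so the numbers are not shown to mark shared cultures. HIF1a-ko hypoxia did not pair by number (1, 2 and 3 at -0.656, 0.574 and -0.651 with R26 hypoxia and -0.616, 0.587 and -0.667 with R26 normoxia). Its library 1 correlated with the number 3 libraries (0.828 and 0.837), which are the deeper ones.

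The Hox genes and all lists were chosen with earlier results of these data known. Every Hox gene is accounted for in the counts, and those of at least 1 CPM in any group are given in each library. Of each list up to 6 called genes of at least 1 CPM with the largest log2 fold changes, and TALE partners, were named. A few genes that this covers are not reported here, but are counted in the totals.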

Additional observations from a re-analysis of the deposited data

How the results depend on the processing

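Of 1212 alternative values of single Hox genes, 1165 kept their direction and their side of the threshold, 36 gained a call and 11 lost one, and none changed direction while called. Of 3009 such values of the other genes of the lists, 2855 kept both, 73 gained a call and 81 lost one. The counts that moved by over 1.5 times were all of R26 hypoxia against R26 normoxia. There 7092 genes were called with depth class as a term, beside 4697. With a replicate block in the fit of both R26 groups alone, added after seeing the data, 7398 genes and 13 Hox genes were called, beside 4697 and 8. The cause was not tested. With a replicate block in the fit of all 9 libraries the Hox calls numbered 12 in HIF1a-ko hypoxia against R26 hypoxia, 9 in R26 hypoxia against R26 normoxia and 8 in HIF1a-ko hypoxia against R26 normoxia, and the calls of all genes 8583, 4777 and 7745. The lost call of that fit is Hoxa3 against R26 normoxia. DESeq2 called 12, 10 and 9 Hox genes in the same order, and depth class as a term 15, 12 and 12. Leaving out each library in turn gave 10 to 14, 8 to 11 and 8 to 10 Hox genes and 7440 to 8672, 3383 to 4538 and 6555 to 8203 genes in all. A threshold of 0.5 CPM gave 18, 17 and 18 expressed Hox genes in HIF1a-ko hypoxia, R26 hypoxia and R26 normoxia, and 5 CPM gave 11, 12 and 11. The 23 genes under 1 CPM rest on few counts, so differences among them were not detectable at this depth unless large.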

Other observations

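Other transcription factors that mark the embryonic origin of mesenchyme were described from 3 lists, chosen like the Hox genes with earlier results known. Of 16 tested factors of foregut and splanchnic mesenchyme, 2 rose and 8 fell in HIF1a-ko hypoxia against R26 hypoxia, 2 rose and 4 fell in R26 hypoxia against R26 normoxia, and 1 rose and 10 fell in HIF1a-ko hypoxia against R26 normoxia. Of all genes 22.6%, 13.1% and 19.9% were called higher and 24.1%, 12.7% and 22.1% lower in the same order. Hand2, a factor of splanchnic and heart mesenchyme, was at 34.0, 38.4 and 40.6 CPM in HIF1a-ko hypoxia, against 130.1, 124 and 80.2 CPM in R26 hypoxia and 88.3, 88.5 and 62.2 CPM in R26 normoxia. HIF1a-ko hypoxia lay below both R26 groups, and the log2 fold change between the hypoxic groups was -1.56 ± 0.20 (adjusted p = 0.000133). Wt1, a factor of the mesothelium, was at 31.3, 26.7 and 27.2 CPM in HIF1a-ko hypoxia, against 66.3, 74.3 and 70.8 CPM in R26 hypoxia and 45.2, 46.2 and 47.4 CPM in R26 normoxia. The 3 groups did not overlap, with log2 fold changes of -1.31 ± 0.07 (adjusted p = 6.11e-07) between the hypoxic groups and 0.61 ± 0.07 (adjusted p = 0.000283) between the R26 groups. Hlx, a factor of gut and liver mesenchyme, fell at -1.19 ± 0.08 (adjusted p = 3.28e-06) between the hypoxic groups. Gata6 was at 81.8, 76.1 and 80.0 CPM in HIF1a-ko hypoxia, against 116, 114 and 114 CPM in R26 hypoxia and 141, 155 and 156 CPM in R26 normoxia. Its groups were apart too, with R26 normoxia highest, at -0.53 ± 0.05 (adjusted p = 2.16e-05) between the hypoxic groups and -0.40 ± 0.05 (adjusted p = 0.000473) between the R26 groups. Isl1 rose and Osr2 fell between the hypoxic groups, at 1.00 ± 0.33 (adjusted p = 0.0325) and -1.16 ± 0.21 (adjusted p = 0.00156), both at low levels. The Isl1 call was lost with a replicate block (0.0527) and without HIF1a-ko hypoxia 1 or 2 or any 1 of the 3 R26 hypoxia libraries (adjusted p up to 0.102).

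Of 12 tested factors of limb, body wall and trunk mesenchyme, 0 rose and 5 fell by edgeR in HIF1a-ko hypoxia against R26 hypoxia, and 0 rose and 3 fell in HIF1a-ko hypoxia against R26 normoxia, with the same counts by DESeq2. At an unadjusted p under 0.05 these were 0 and 7, and 0 and 3. The 5 of 12 and the 3 of 12 called by edgeR all fell, beside 24.1% and 22.1% of all genes lower. Of all genes 46.8% and 42% were called in either direction. In R26 hypoxia against R26 normoxia edgeR called 0, with 3 higher and 0 lower at an unadjusted p under 0.05. DESeq2 called 2 higher there, Prrx1 (adjusted p = 0.0398) and Prrx2 (0.0380), and some alternatives also called Twist1 or Emx2. Prrx1, a factor of limb and other mesenchyme, was at 337, 330.1 and 339.9 CPM in HIF1a-ko hypoxia, against 429, 437 and 469 CPM in R26 hypoxia and 395, 397 and 421 CPM in R26 normoxia. It fell at -0.41 ± 0.05 (adjusted p = 8.26e-05) between the hypoxic groups. Its relative Prrx2 was at 11.9, 9.47 and 10.6 CPM in HIF1a-ko hypoxia, against 34.1, 31.7 and 33.6 CPM in R26 hypoxia and 23.5, 26.7 and 30.6 CPM in R26 normoxia and fell more, at -1.63 ± 0.11 (adjusted p = 2.24e-06). Twist1, Emx2 and Tbx3 fell there, with log2 fold changes of -0.42, -0.28 and -0.21. These calls were not stable: Twist1 lost its call in 8 alternatives (adjusted p 0.0519 to 0.138) and Tbx3 in 5 (0.0647 to 0.105), each including the fits without any 1 of the 3 HIF1a-ko libraries, and Emx2 lost it without HIF1a-ko hypoxia 3 (0.0536). Of 8 tested factors of head mesenchyme, 3 rose and 1 fell in HIF1a-ko hypoxia against R26 hypoxia and 3 rose and 1 fell in HIF1a-ko hypoxia against R26 normoxia, near the 46.8% and 42% of all genes called in either direction. Between the R26 groups edgeR and DESeq2 called 0, with 1 higher at an unadjusted p under 0.05, and a few alternatives made a call, such as Msx1 without R26 hypoxia 3 (0.0482). Otx1, a forebrain and head factor, was at 1.76, 1.59 and 1.06 CPM in HIF1a-ko hypoxia, against 0.283, 0.318 and 0.567 CPM in R26 hypoxia and 0.316, 0.279 and 0.383 CPM in R26 normoxia. The HIF1a-ko libraries stood above both R26 groups, at 1.80 ± 0.29 (adjusted p = 0.000711) against R26 hypoxia. Msx1 rose there at 0.33 ± 0.11 (adjusted p = 0.0387), and lost its call in 8 alternatives (adjusted p 0.0528 to 0.112), including the fits without any 1 of the 3 HIF1a-ko libraries.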
